A study of Mus musculus with 6 samples.

Results

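Scara5, a class A scavenger receptor that binds ferritin at the cell surface, was examined together with 9 genes of iron uptake, storage and sensing in 2 cell populations derived from a mouse mammary tumor. The 10 genes were taken by name from a table of 24129 gene names, and their choice rested on earlier results of the same comparison. Their differences between the populations are therefore given as a description, with no test. RNA had been sequenced from 3 libraries of each population. Both populations descend from 4T1 cells, a BALB/c mammary carcinoma line that stably expressed GFP and was injected into the mammary fat pad of BALB/c mice. T1 cells, labelled 4T1A by the submitters, had low GFP and grew attached with epithelial morphology. T2 cells, labelled 4T1NA, were bright for GFP, round in shape and only loosely attached. Both were maintained in DMEM/F-12 medium with serum and antibiotics, but T2 cells were passaged as a suspension, without trypsin, so population and culture handling cannot be told apart. Both were sorted from a culture of GFP-negative, CD140a-positive stromal cells of the resected tumor, meant to hold cancer associated fibroblasts, in which GFP-positive tumor cells had taken over. The replicates were called independent by the submitters, without saying whether they came from separate cultures, so the spread between them may be technical. The parental 4T1GFP cells were not analysed here.

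Cells take up most of their iron as transferrin, which binds the transferrin receptor and is carried into endosomes, where the iron is released, reduced and moved to the cytosol. Iron that is not used is stored inside ferritin, a shell of heavy and light chains, and ferritin itself can be taken up through receptors such as Scara5. Iron regulatory proteins bind hairpins called iron-responsive elements in iron-poor cells, where they block translation of ferritin and ferroportin mRNA and protect the transferrin receptor mRNA from decay.

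The hairpins are shown because they divide the members into transcripts that carry the known element and transcripts that do not. The search required, in the sense strand of GENCODE M21 transcripts, a C, 5 stem bases, the loop CAGTGN and 5 bases able to pair with the stem, G with T included. Among the 10 members it found 1 match in the 5′ UTR of Fth1, 1 in the 5′ UTR of Ftl1 and 4 in the 3′ UTR of Tfrc, and none in the UTRs of the other 7 members. Ferroportin (Slc40a1), a gene of the wider iron lists, had 1 match in its 5′ UTR. Over 21877 genes with coding transcripts, 0.142% held a match in a 5′ UTR and 0.59% in a 3′ UTR, and a match describes the letters, not a working element. Each window of 30 bases is written 5′ to 3′ as transcript sequence in DNA letters, and the capitals mark the loop. The windows lie on the GRCm38 (mm10) build at chr19:9982732-9982761 (plus strand) for Fth1, chr7:45459778-45459807 (minus) for Ftl1, chr1:45925464-45925493 (minus) for Slc40a1, and chr16:32631219-32631248, chr16:32631598-32631627, chr16:32631663-32631692 and chr16:32631710-32631739 (all plus) for elements 1 to 4 of Tfrc.
Fth1 5′ UTR: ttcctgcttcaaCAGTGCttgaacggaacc
Ftl1 5′ UTR: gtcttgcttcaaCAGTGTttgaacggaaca
Slc40a1 5′ UTR: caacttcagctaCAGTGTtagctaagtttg
Tfrc 3′ UTR, element 1: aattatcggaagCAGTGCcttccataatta
Tfrc 3′ UTR, element 2: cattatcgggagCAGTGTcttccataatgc
Tfrc 3′ UTR, element 3: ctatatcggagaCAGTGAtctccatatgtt
Tfrc 3′ UTR, element 4: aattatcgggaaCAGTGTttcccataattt

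The libraries held 18133227 to 20839686 reads on genes, and 1 read was worth 0.928 to 1.06 normalized counts, the unit of the levels below. Of the 5 epithelial tumor cell markers with a read, summed levels were 64001 to 69949 in T1 and 37480 to 43407 in T2, and Krt5 was at 0 in all libraries. The keratin gene Krt8 was 21191 to 23297 normalized counts in T1 and 17356 to 20326 in T2. Krt18 was 20584 to 25833 in T1 and 19625 to 22756 in T2, with overlap. The other detected markers were far lower in T2. Epcam was 2931 to 3502 in T1 and 30.7 to 37.2 in T2, and Cdh1 was 13726 to 15461 and 453 to 484. Krt14 was 3707 to 3845 in T1 and 0 to 7.17 in T2. In bulk RNA such as this, fewer cells that express a gene and less RNA per cell cannot be told apart.

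Scara5 differed most among the members. In T1 its level was 5.29, 3.72 and 0 normalized counts in replicates 1 to 3, which were 5, 4 and 0 reads. In T2 it was 3601, 2957 and 3718, which were 3678, 2888 and 4007 reads. Scara5 RNA was thus close to absent from all 3 T1 libraries and plainly present in all 3 T2 libraries, without overlap. The means were 3.0 ± 2.7 in T1 and 3425 ± 410 in T2 (SD, n = 3 each). On the pooled reads the T2 level was 1163 times that of T1, with an exact 95% interval of 612 to 2544 that covers counting error only. The ratio was 1805 without T1 replicate 1, 1354 without T1 replicate 2 and 772 without T1 replicate 3, since each rested on a few T1 reads. On the scale of log2(normalized count + 1) used for all differences below, T1 minus T2 was -10.10 with a standard error of 0.55. The gene spans chr14:65666403-65764826 on the plus strand. Because its mean over all 6 libraries exceeded the minimum of 10 normalized counts only through T2, its entry into the comparison already required a difference.

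Scara5 is known from fibroblasts as well as from some epithelia, so fibroblast markers were read beside it. The 9 markers summed to 233 to 252 normalized counts in T1 and 1001 to 1300 in T2. Pdgfra, which encodes the CD140a used in the first sort, was 191 to 206 in T1 and 996 to 1295 in T2, and made up most of the sum in both. The collagen genes went the other way: Col1a1 was 14.8 to 27.9 in T1 and at most 0.979 in T2, and Col1a2 was 4.23 to 11.7 in T1 and 0 in T2. Cd34 was 6.35 to 11.2 in T1 and 3.92 to 5.12 in T2, Dcn was at most 3.90 in T1 and 0 in T2, Pi16 had at most 1.02 in T2, and Col3a1, Lum and Dpt were at 0 in all libraries. Endothelial markers summed to at most 5.29 in T1 and 4.64 in T2. Pdgfra and the summed fibroblast list were thus higher with Scara5 in T2, while the collagen markers were at or near 0 there, and the part of fibroblast RNA in the Scara5 level was not tested.

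The neighbors of Scara5 on chromosome 14 did not all share its pattern. Elp3, 73.3 kb before it, had means of 1837 ± 134 in T1 and 1726 ± 105 in T2. Pbk, 41.0 kb after it, had means of 2411 ± 247 and 2532 ± 311, and Esco2, 54.2 kb after it, 920 ± 10.7 and 971 ± 135 (SD, n = 3). For these 3 genes the T1 and T2 values overlapped and none passed the limma test (Benjamini-Hochberg adjusted p of 0.39, 0.61 and 0.60). Nuggc, which ends 17.9 kb before Scara5, was low in both but did not overlap, at 0, 1.86 and 1.95 normalized counts in T1 and 17.6, 15.4 and 19.5 in T2. It was below the minimum mean and entered no test. These 4 genes are named for their position.

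The 5 genes whose levels over the 6 libraries were closest to those of Scara5, by Euclidean distance on the log2 scale, were Sele (1.94), Gem (2.79), Selp (2.97), Bpifb4 (3.29) and Sema6d (3.60). Sele and Selp encode E- and P-selectin, Gem a small GTP-binding protein and Sema6d a semaphorin. Sele was 0 to 1.86 normalized counts in T1 and 4567 to 4714 in T2, and Selp was 0.930 to 2.93 and 4444 to 5258. Gem had the highest T1 value of the 5, 14.8 in replicate 1. The lowest T2 value of the 5 was 1084, for Bpifb4, and all were far higher in each T2 library than in any T1 library. Their choice by closeness to Scara5 in these same libraries fixed that pattern, so it is a description only.

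Of the 3 other class A scavenger receptor genes Msr1, Marco and Colec12, which belong to the same family as Scara5, no read was found in any library. Scara3, the remaining member of that family list, was 1014, 856 and 1032 normalized counts in T1 and 2222, 1929 and 2287 in T2. It was lower in T1 by limma (log2 difference -1.15, SE 0.10, adjusted p = 5.72e-06), with every T1 value below every T2 value. Over all 11514 genes compared, 24.4% were lower in T1 and 68.1% did not overlap. Scara5 itself was chosen with earlier results of this comparison known. The higher T2 level of both detected receptors is therefore not read as a trait of the family.

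**Figure D1:**
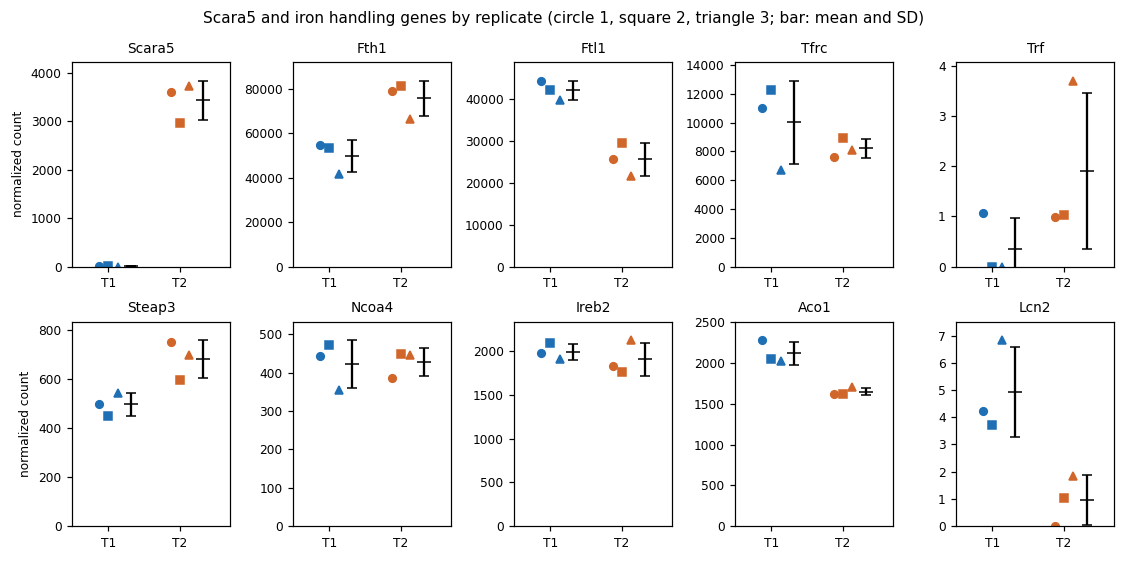
Normalized counts (linear axes from 0, a separate scale in each panel) of Scara5 and the 9 iron handling genes in T1 (blue) and T2 (orange); symbols are replicates 1 to 3 and the black bar is the mean and SD, which is not drawn below 0. Scara5 lies at 0 to 5.29 in T1 and 2957 to 3718 in T2, Fth1 and Ftl1 differ in opposite directions, and Tfrc, Ncoa4 and Ireb2 overlap between the populations.

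Among the genes of transferrin-bound iron uptake, the members differed little. Tfrc, the transferrin receptor, was 11019, 12304 and 6741 normalized counts in T1 and 7614, 8920 and 8136 in T2. T1 replicate 3 was the lowest of the 6 libraries, and the groups overlapped. The log2 difference was 0.24 (SE 0.18), and it was 0.50 without T1 replicate 3 and 0.07 without T1 replicate 2. The gene lies at chr16:32608920-32632794 on the plus strand.

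Steap3, the endosomal reductase that converts transferrin-delivered iron to its ferrous form, was 496, 450 and 544 normalized counts in T1 and 748, 596 and 695 in T2. All T2 values lay above all T1 values, the mean being 1.37 times higher, and the log2 difference was -0.45 (SE 0.12). Steap3 spans chr1:120190757-120272705 on the minus strand.

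Trf, which encodes transferrin itself, a protein made mainly by liver, was barely detected. It had 1, 0 and 0 reads in T1 and 1, 1 and 4 reads in T2, and hepatocyte markers summed to at most 2.79 normalized counts in any library. No fold is given, because the reads were too few, and a second gene model, Gm20425, overlaps Trf (chr9:103204001-103230444) on the same minus strand. Transferrin RNA from the cells themselves was thus at the limit of detection in both populations.

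The ferritin genes were the most abundant members, and they differed in opposite directions. Fth1, the ferritin heavy chain with ferroxidase activity, was 54730, 53168 and 41578 normalized counts in T1 and 78941, 81392 and 66362 in T2. Ftl1, the light chain, which helps to form the mineral core, was 44411, 42263 and 39865 in T1 and 25745, 29496 and 21554 in T2. The heavy chain was higher in every T2 library than in any T1 library, and the light chain higher in every T1 library than in any T2 library.

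The Fth1 means were 49825 ± 7185 in T1 and 75565 ± 8064 in T2 (SD, n = 3), a T2 level 1.52 times that of T1, with a log2 difference of -0.61 (SE 0.12). For Ftl1 the means were 42180 ± 2274 and 25598 ± 3973, a T1 level 1.65 times that of T2, with a log2 difference of 0.73 (SE 0.11). Over every alternative setting the log2 difference stayed between -0.70 and -0.42 for Fth1 and between 0.61 and 0.84 for Ftl1. Together the ferritin genes took 0.423% to 0.517% of all normalized counts in T1 and 0.467% to 0.579% in T2, ranges that overlapped.

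The ratio of heavy to light chain within a library does not depend on how libraries were scaled. Per kilobase of merged exons it was 0.476, 0.486 and 0.403 in T1 and 1.18, 1.07 and 1.19 in T2. The group means, 0.455 ± 0.045 and 1.15 ± 0.070 (SD, n = 3), stood 2.52 times apart, and this factor is the same for any choice of transcript length. The ratio itself is not: with the lengths of the APPRIS principal transcripts, an alternative chosen after seeing the data, the means were 1.23 in T1 and 3.09 in T2. Which of the chain transcripts was the more abundant within T1 thus depended on the length used, whereas the shift between the populations did not. Both genes have relatives in the genome. A search of gene names that begin with Fth or Ftl, leaving out Fthl names, found 5 annotated copies. Copies under other names were not searched. None of the 5 had an entry in the table, and reads that fit a gene and a copy equally may have been lost or assigned to either. Their part in the levels was not tested. Fth1 lies at chr19:9980598-9985098 on the plus strand and Ftl1 at chr7:45457944-45459884 on the minus strand, where it overlaps the miRNA model Gm22133 on its own strand and the model Gm10252 on the other.

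Ncoa4, the receptor that carries ferritin to lysosomes for breakdown, was 443, 472 and 353 normalized counts in T1 and 385, 449 and 446 in T2. The groups overlapped and the log2 difference was -0.02 (SE 0.14), with values from -0.11 to 0.10 over the alternative settings. Ncoa4 spans chr14:32159865-32179855 on the plus strand.

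**Figure D2:**
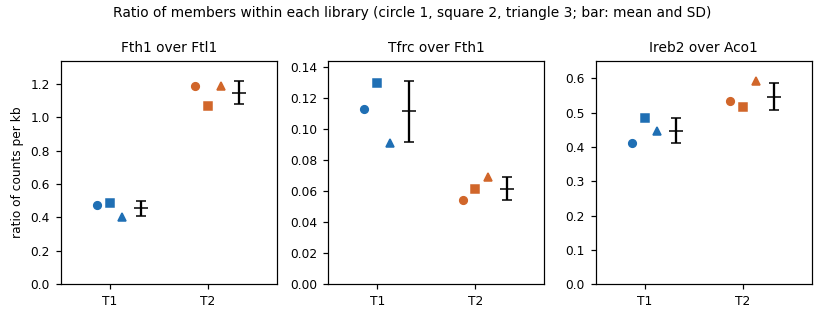
Ratio of normalized counts per kilobase of merged exons between pairs of members within each library, for T1 (blue) and T2 (orange), on linear axes from 0; symbols are replicates 1 to 3 and the black bar is the mean and SD. Fth1 over Ftl1 runs from 0.403 to 0.486 in T1 and 1.07 to 1.19 in T2, while Tfrc over Fth1 is higher in T1 and Ireb2 over Aco1 higher in T2.

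The iron sensors were compared next. Aco1 encodes iron regulatory protein 1, which is a cytosolic aconitase when it holds an iron-sulfur cluster. It was 2279, 2051 and 2026 normalized counts in T1 and 1623, 1621 and 1702 in T2. All T1 values lay above all T2 values, the mean being 1.29 times higher, with a log2 difference of 0.36 (SE 0.08).

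Ireb2 encodes iron regulatory protein 2, which is degraded when iron is plentiful. It was 1973, 2092 and 1909 normalized counts in T1 and 1823, 1762 and 2124 in T2, with T2 replicate 3 the highest of all 6. The groups overlapped, with a log2 difference of 0.07 (SE 0.09). Aco1 lies at chr4:40143081-40198338 and Ireb2 at chr9:54863789-54912530, both on the plus strand. The ratio of Ireb2 to Aco1 per kilobase was 0.447 ± 0.037 in T1 and 0.547 ± 0.040 in T2 (SD, n = 3), without overlap.

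Tfrc and Fth1 carry their elements at opposite ends of the mRNA, and their ratio per kilobase was 0.111 ± 0.019 in T1 and 0.0614 ± 0.0073 in T2 (SD, n = 3). The lowest T1 ratio, 0.0909 in replicate 3, was above the highest T2 ratio, 0.0688 in replicate 3. Tfrc alone overlapped between the populations (log2 difference 0.24, SE 0.18), so the ratio in part restates the Fth1 difference given above. Among the transcripts with a match in the 5′ UTR, Ftl1 and Slc40a1 were higher in T1 and Fth1 was higher in T2. Alas2, which also has a match there, overlapped between the populations (log2 difference -0.27, adjusted p = 0.47 by limma). Fth1 and Ftl1 were chosen with earlier results of this comparison known, and Slc40a1 reached the minimum mean only through T1. These directions are therefore a description of RNA only. Protein levels were not analysed here.

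Lcn2, a secreted lipocalin that binds iron-carrying siderophores and is abundant in neutrophils, was near the limit of detection. It had 4, 4 and 7 reads in T1 and 0, 1 and 2 reads in T2. On the pooled reads the T1 level was 5.05 times that of T2, with an exact 95% interval of 1.43 to 27.2. That interval covers counting error only, not the spread between replicates, and is no test of the difference. Neutrophil markers summed to at most 0.930 normalized counts in T1 and 3.71 in T2. Lcn2 lies at chr2:32384633-32388252 on the minus strand and was below the minimum for the comparison, as was Trf.

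Of the 10 members, 8 entered the comparison. Values of T1 and T2 did not overlap in 5 of these 8, beside 68.1% of the 11514 genes compared, a background that leaves nothing particular to the members in that count. The log2 difference was above 0 for 4 and below 0 for 4, and 7 of the 8 lay within 1 log2 unit. Scara5 was the exception.

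Levels of different genes were set in order per kilobase of merged exons. In T1 the order was Ftl1 (31477), Fth1 (14363), Tfrc (1620), Aco1 (471), Ireb2 (210), Steap3 (86.9), Ncoa4 (45.1), Lcn2 (1.88), Scara5 (0.493) and Trf (0.106). Each was below the one before it in all 3 libraries except Trf, which overlapped Scara5. In T2 the order was Fth1 (21783), Ftl1 (19103), Tfrc (1330), Scara5 (562), Aco1 (367), Ireb2 (201), Steap3 (119), Ncoa4 (45.6), Trf (0.574) and Lcn2 (0.366). There Ftl1 overlapped Fth1, and Lcn2 overlapped Trf. The order of Fth1 and Ftl1 rests on the length used. With APPRIS principal transcripts Fth1 was above Ftl1 in every library, with ratios of 1.09 to 1.31 in T1 and 2.88 to 3.21 in T2. Scara5 thus moved from next to last among the members in T1 to the fourth place in T2, below the transferrin receptor and above both iron regulatory proteins, and ranked 1931 of 23607 genes with a known length.

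The other genes of iron and heme handling, with the other class A scavenger receptors, were taken from 9 lists with 74 genes. Of these, 12 had no read in any library and 52 reached the minimum of 10 normalized counts. By limma at a Benjamini-Hochberg adjusted p under 0.01, 21 were higher in T1, 9 were lower and 22 did not pass. This was 40.4% and 17.3% of the 52, beside 25.1% and 24.4% of all 11514 genes compared. Without the scavenger receptor list, 51 were compared, 21 higher and 8 lower in T1 (41.2% and 15.7%). The median log2 difference was 0.23 over the 52 and -0.01 over all genes. Past an absolute log2 difference of 2 as well, the call used by the study, were Slc40a1 and Cpox, 2 of 52, beside 8.37% of all genes. Slc40a1 reached the minimum mean only through T1, so its entry already required a difference. Values of T1 and T2 did not overlap in 41 of the 52, beside the 68.1% of all genes. The lists were chosen with earlier results of these data known, so these counts are descriptive.

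**Figure D3:**
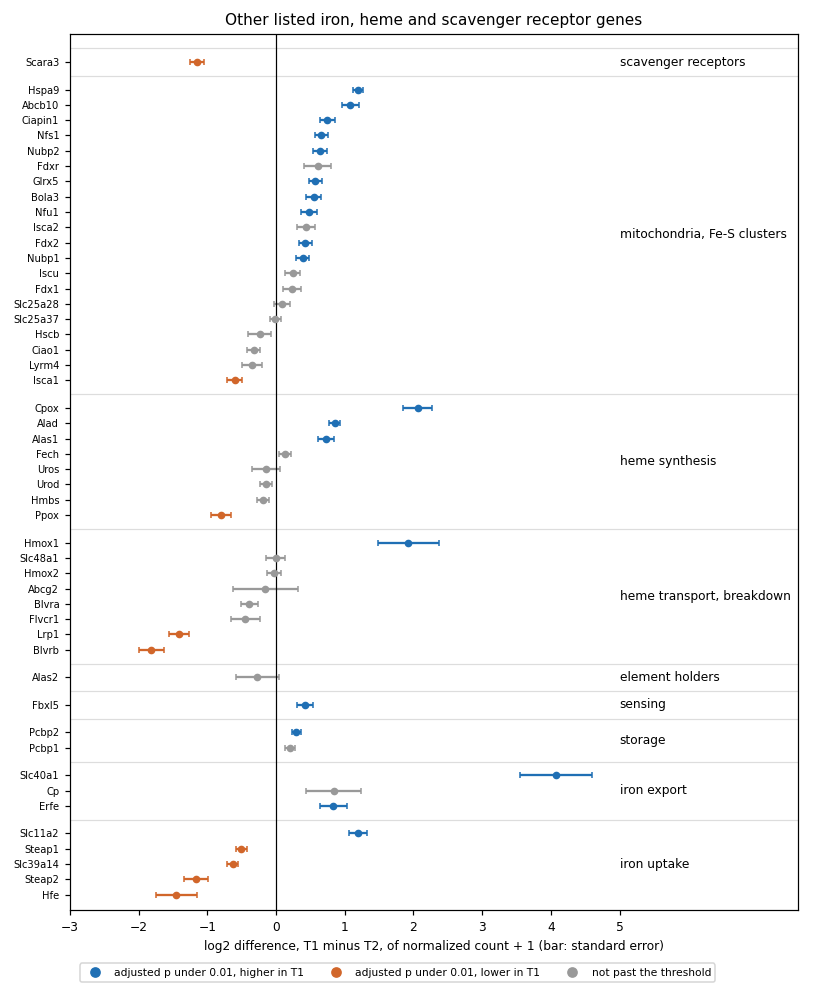
Log2 difference, T1 minus T2, with its standard error (bars) for 49 of the 52 other listed genes with at least 10 normalized counts on average, grouped by list; blue and orange mark genes with adjusted p under 0.01 that were higher and lower in T1, and gray marks the rest. Slc40a1 lies farthest to the right at 4.07 and Blvrb farthest to the left at -1.82, and 10 of the 20 mitochondrial and iron-sulfur cluster genes drawn are blue against 1 orange.

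In the list of iron uptake genes, 5 of 14 were compared and all 5 passed, 1 higher and 4 lower in T1, beside 25.1% and 24.4% of all genes. Slc11a2, the divalent metal transporter that moves iron out of endosomes, was 1205, 1163 and 919 normalized counts in T1 and 456, 528 and 444 in T2 (log2 difference 1.19, SE 0.13, adjusted p = 1.79e-05 by limma). Every T1 value was above every T2 value. On the lower side, Hfe, which binds the transferrin receptor, was 24.3, 16.7 and 19.5 in T1 and 42.1, 51.2 and 82.6 in T2 (-1.45, SE 0.30, adjusted p = 0.0019). Without T2 replicate 3, the highest, Hfe no longer passed (adjusted p = 0.0103). Steap2, a metalloreductase of the Steap3 family, was 1790, 1886 and 3124 in T1 and 4643, 4806 and 5312 in T2 (-1.16, adjusted p = 0.00024). Slc39a14, a zinc and iron importer, fell in T1 relative to T2 by 0.63 on the log2 scale (adjusted p = 8.30e-05). Of these list genes, Hfe, Steap2 and Slc39a14 were thus higher in T2, whereas Slc11a2 was higher in T1. Among the members, which were not tested, Steap3 and Scara5 were higher in T2 and Tfrc overlapped (log2 difference 0.24).

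For iron export, 3 of 9 listed genes were compared and 2 were higher in T1, beside 25.1% of all genes. Slc40a1, or ferroportin, the known exporter of iron from cells, was 31.7, 14.9 and 17.6 normalized counts in T1 and 0, 1.02 and 0 in T2 (log2 difference 4.07, SE 0.53, adjusted p = 7.42e-05 by limma). Its 64 reads in T1 against 1 in T2 gave a ratio of 64.6 with an exact 95% interval of 11.2 to 2593 that covers counting error only. It reached the minimum mean of 10 only through T1, so its entry already required a difference. Its log2 difference ran from 2.26 with a pseudocount of 5 to 5.93 with DESeq2, and with no filter on low values it also passed in limma (adjusted p = 3.1e-05). Ferroportin RNA was low in T1 and nearly absent in T2. Erfe, which encodes erythroferrone, a hormone that lowers hepcidin, was 551, 521 and 939 in T1 and 361, 369 and 356 in T2 (0.83, adjusted p = 0.0038). Erfe did not pass when any of the 3 T2 libraries was left out (adjusted p of 0.0162, 0.0125 and 0.0182 without replicates 1, 2 and 3).

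In the remaining storage and sensing lists, Pcbp2, a chaperone that delivers iron to ferritin, was 6116, 5877 and 6312 in T1 and 5003, 4789 and 5135 in T2 (log2 difference 0.29, adjusted p = 0.0037 by limma). Fbxl5, the iron-binding ubiquitin ligase subunit that marks iron regulatory protein 2 for breakdown, was 1160, 1113 and 1479 in T1 and 938, 905 and 939 in T2 (0.42, adjusted p = 0.0081). Neither overlapped between the populations, but Pcbp2 did not pass without T1 replicate 1, T2 replicate 1 or T2 replicate 2 (adjusted p up to 0.0154), and Fbxl5 passed only with all 3 T2 libraries and with T1 replicates 1 and 3 (adjusted p up to 0.0267 without one of them). Of the other transcripts known for an iron-responsive element, 2 were compared and neither passed.

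Heme breakdown and uptake gave 1 gene higher and 2 lower in T1 of 8 compared (12.5% and 25.0%), near the 25.1% and 24.4% of all genes. Hmox1, the heme oxygenase that frees iron from heme, was 2095, 1593 and 1516 normalized counts in T1 and 351, 1123 and 233 in T2 (log2 difference 1.93, SE 0.44, adjusted p = 0.0034 by limma). T2 replicate 2 stood well above the other T2 libraries and below all T1 libraries, and without it the difference was 2.58. Hmox1 did not pass without T1 replicate 1 (adjusted p = 0.0141), T2 replicate 1 (0.0203) or T2 replicate 3 (0.016), nor with DESeq2 (0.0314). Blvrb, biliverdin reductase B, was 66.7, 62.3 and 82.0 in T1 and 299, 222 and 232 in T2 (-1.82, SE 0.18, adjusted p = 1.33e-05). Lrp1, a receptor that takes up heme bound to hemopexin among many other ligands, was 2746, 2293 and 3638 in T1 and 7227, 8406 and 7184 in T2 (-1.42, adjusted p = 1.49e-05). Hmox2, the other heme oxygenase, chosen after its values were seen, was 552 to 639 in T1 and 598 to 655 in T2, with overlap (-0.04, adjusted p = 0.78).

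Heme synthesis was compared over all 8 listed enzymes, of which 3 were higher and 1 lower in T1 (37.5% and 12.5%). For so few genes these shares are near the 25.1% and 24.4% of all genes. Cpox, coproporphyrinogen oxidase, was 1633, 1741 and 3011 normalized counts in T1 and 448, 572 and 458 in T2 (log2 difference 2.06, SE 0.21, adjusted p = 1.24e-05 by limma). Its difference was 1.78 without T1 replicate 3, the highest, and 1.996 without T2 replicate 1, so that it then stayed different but was not past 2. Alad, which makes the first pyrrole, was 2046, 2136 and 2297 in T1 and 1163, 1277 and 1148 in T2 (0.85, adjusted p = 1.14e-05). Alas1, the first and rate-limiting enzyme, was higher in T1 by 0.72 (adjusted p = 0.00036). Ppox, which follows Cpox in the pathway, was 197, 162 and 187 in T1 and 311, 349 and 293 in T2 (-0.80, adjusted p = 0.00057).

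**Figure D4:**
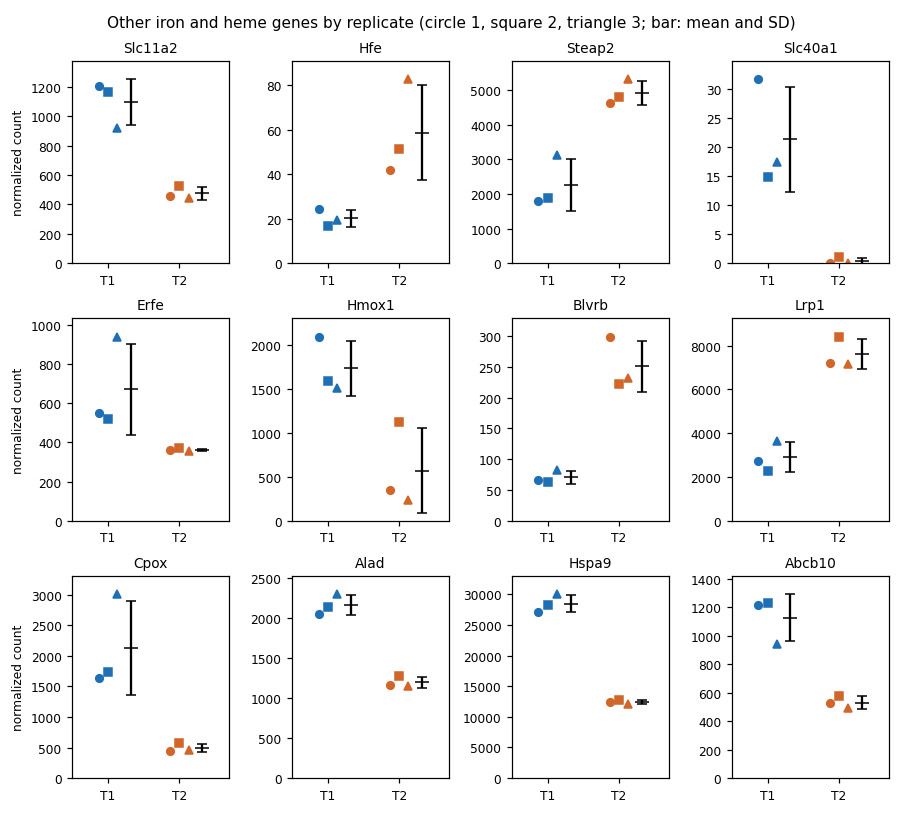
Normalized counts (linear axes from 0, a separate scale in each panel) of 12 other iron and heme genes in T1 (blue) and T2 (orange); symbols are replicates 1 to 3 and the black bar is the mean and SD, which is not drawn below 0. Hfe, Steap2, Blvrb and Lrp1 are higher in all T2 libraries, the other 8 are higher in all T1 libraries, and T2 replicate 2 of Hmox1 stands at 1123.

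Mitochondrial iron and iron-sulfur cluster genes were all detected, and 12 of 22 were higher in T1, 1 was lower and 9 did not pass (median log2 difference 0.43). This was 54.5% higher and 4.55% lower, beside 25.1% and 24.4% of all genes. Hspa9, the mitochondrial chaperone that takes part in cluster transfer, was 27194, 28212 and 30028 normalized counts in T1 and 12468, 12819 and 12074 in T2 (log2 difference 1.19, SE 0.07, adjusted p = 3.33e-07 by limma). Hspa9 also serves protein import in general. Abcb10, an inner membrane transporter, was 1215, 1231 and 939 in T1 and 525, 577 and 490 in T2 (1.08, adjusted p = 3.40e-05). Isca1, a cluster assembly factor, was the lower one, at 357, 399 and 335 in T1 and 521, 588 and 547 in T2 (-0.60, adjusted p = 0.00099).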

How the data were processed

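Per the submitters' processing notes and methods, reads were trimmed with Trimmomatic, aligned to mm10 with TopHat2, counted per gene with HTSeq and normalized with DESeq2. The deposited signal is therefore a read count divided by a size factor for each library, as the authors made it. Annotation, strand setting and versions are not given in the sources used here. Whole reads could be recovered for 100% of values (tolerance 0.1 read). No column of values was left unused (0).

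Values were transformed to log2(normalized count + 1), and T1 was compared with T2 by limma 3.58.1 (R 4.3.3; variance trend on) over the 11514 genes whose mean reached 10. P-values were adjusted by Benjamini-Hochberg over all of them. Thresholds were an adjusted p of 0.01 and, for the stricter call, an absolute log2 difference of 2. As alternatives, the recovered reads were tested with edgeR 4.0.16 (quasi-likelihood) and DESeq2 1.42.0. The tests were first tested on simulated data. With 3 against 3 libraries an exact permutation test cannot give less than 0.1. Replicate libraries of a group differed by more than sampling noise.

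Positions, lengths and transcript sequences came from GENCODE M21 (GRCm38), in which 23607 of 24129 names were found. Older symbols in the table were used for Erfe, Meltf, Hjv, Fdx2, Flvcr1 and Flvcr2. The members and the gene and marker lists were chosen with earlier results of these data known. Named are all members, the other class A scavenger receptors, per list up to 3 genes a direction with the largest passing difference, genes past both thresholds, and the 5 genes closest to Scara5, with the neighbors of Scara5 and the marker genes besides. Some genes that this rule names are not reported here.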

Additional observations from a re-analysis of the deposited data

How the results depend on the processing

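The alternatives changed the pseudocount, the filter on low values, the normalization, the variance trend, the test, the threshold, the transcript length and the libraries included. With them, 15 to 25 of the other listed genes were higher and 8 to 11 lower in T1 (21 and 9 as reported). Past both thresholds were 1 to 11 genes in place of 2, namely 1 with a mean of at least 50, 1 to 3 when a library was left out (1 without T2 replicate 1) and 11 with an adjusted p under 0.05 and a log2 difference above 1. Of the 30 genes called, 21 stayed called in every alternative, 9 lost the call in at least 1 (Pcbp2, Hfe, Erfe, Fbxl5, Hmox1, Fdx2, Nfu1 and Nubp1 among them) and 0 changed direction. Without the variance trend, Pcbp2 (adjusted p = 0.0167), Erfe (0.018), Fbxl5 (0.0251) and Hmox1 (0.0227) did not pass in limma, nor did Pcbp2 with quantile normalization (0.0153). The log2 difference of Scara5 was -8.80 with a pseudocount of 5 (-10.10 with 1). Fth1 over Ftl1 per kilobase, 0.455 in T1 and 1.15 in T2, was 0.553 and 1.39 with the longest transcript and 1.23 and 3.09 with the APPRIS principal transcript, which was added after seeing the data. For the replicate block, libraries with the same number had correlations of their deviations of 0.0575, 0.172 and 0.104. The other pairs ran from -0.152 to 0.0719, the highest being T2 replicate 1 with T1 replicate 3. Whether the numbers pair the libraries was thus not settled, and the main comparison did not use them. With the block 21 genes were higher, 9 lower and 2 past both thresholds. Genes with a few reads, such as Scara5 in T1, Slc40a1 in T2, Trf and Lcn2, are limited by depth.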
